A study of Mus musculus with 2 samples.

Results

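Glucocorticoid activation and response were followed through 9 genes among the 28692 counted in single-cell RNA sequencing of the stromal vascular fraction (SVF) of mouse gonadal white adipose tissue (gWAT). The genes were chosen by name, with earlier results of these data known. They were the activating enzyme Hsd11b1, the receptor Nr3c1, and the glucocorticoid-responsive genes Fkbp5, Tsc22d3, Sgk1, Zbtb16, Errfi1, Mt1 and Mt2. All 9 were detected in both libraries. One library came from Adipo-Pgam1 KO mice (Adipoq-Cre with both Pgam1 alleles floxed) and the other from littermate controls (both alleles floxed, without Cre, labelled as wildtype). All animals were male, of the C57BL/6 strain and 13 weeks old by the labels, and the labels name no treatment. The number of mice behind each library is not given in the sources used here. With 1 library per genotype there is no replicate spread and no test, and genotype cannot be told apart from library, harvest or sequencing run. The intervals below are 95% and cover counting error only.

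Corticosterone, the main glucocorticoid of mice, circulates beside an inactive keto form, and the enzyme encoded by Hsd11b1 (11β-hydroxysteroid dehydrogenase 1) regenerates the active hormone inside the cell. The hormone binds the receptor Nr3c1, which leaves its chaperone complex, enters the nucleus and switches on genes such as Fkbp5, whose protein in turn lowers the receptor's affinity for hormone. In fat, glucocorticoids are known to drive preadipocyte differentiation and to restrain inflammation in macrophages. Neither the steroid nor the enzyme's activity was measured here, only mRNA.

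After barcodes with fewer than 500 detected genes or more than 10% mitochondrial transcripts and predicted doublets were removed, 3616 of 8522 control barcodes and 937 of 2730 Adipo-Pgam1 KO barcodes were kept. They held 30429137 and 9507548 unique molecular identifiers (UMIs, one per captured transcript), with medians of 6898 and 7494 UMIs per cell. The libraries shared 9 barcode sequences, none of them among the kept cells. The cells formed 26 clusters, grouped where marker genes allowed into classes, and levels are given as CPM, the UMIs of a gene per 1000000 UMIs of the class. Classes with at least 50 cells in both libraries were fibroblast-like (785 control and 188 Adipo-Pgam1 KO cells), macrophage-like (646 and 95), T cell-like (344 and 152), dendritic cell-like (258 and 64), NK cell-like (238 and 51), ILC2-like (group 2 innate lymphoid, 181 and 60) and endothelial-like (151 and 60). Median depth was 12302 and 17595 UMIs in fibroblast-like and 8204.5 and 10866 in macrophage-like cells, so the Adipo-Pgam1 KO cells of both held more UMIs per cell. A further 354 and 146 cells stayed unnamed.

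The deleted gene Pgam1, a glycolytic enzyme, was counted at 110 CPM in the control and 116 CPM in the Adipo-Pgam1 KO library. In fibroblast-like cells it was 108 and 104 CPM (log2 ratio -0.05, -0.24 to 0.13), and in macrophage-like cells 143 and 207 CPM (0.54, 0.32 to 0.75). In the 5 fibroblast-like sub-clusters described below the ratio lay between -0.27 and 0.14, with every interval including 0. The committed preadipocyte-like cells held 119 and 130 CPM, from 152 and 17 cells. Cre was driven by the promoter of the adipocyte gene Adipoq, and 6 mature adipocyte markers summed to 2.7 and 2.6 CPM in fibroblast-like cells. Recombination was not measured, and Pgam1 gave no check of the genotype labels in the classes named here.

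Hsd11b1 (chr1:193221634-193264075, minus strand, GRCm38) was the member most restricted to one class. In the control library fibroblast-like cells held 6855 of its UMIs, 90.8% of all, at 711 CPM (694 to 728). The level in all other cells together was 21.3-fold lower, a log2 difference of 4.42 (4.30 to 4.53 by counting error, and 3.46 to 5.37 over the other ways of processing the data). In the Adipo-Pgam1 KO library the same difference was 3.80 (3.60 to 4.0), or 13.9-fold.

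NK cell-like cells came next in the control library with 167 CPM (143 to 194), followed by T cell-like cells with 97.8 CPM (83.1 to 114). From T cell-like cells downward, each class overlapped its neighbour in the order: monocyte-like 82.1 CPM, lymphatic endothelial-like 40.4 CPM, ILC2-like 37.9 CPM, B cell-like 21.8 CPM, pericyte- or smooth muscle-like 8.98 CPM, macrophage-like 6.90 CPM, mesothelial-like 6.41 CPM, endothelial-like 3.84 CPM and dendritic cell-like 3.44 CPM. In the Adipo-Pgam1 KO library NK cell-like cells held 153 CPM, T cell-like cells 75.8 CPM and ILC2-like cells 39.9 CPM. Fibroblast-like cells thus led in both libraries, with NK cell-like cells ahead of T cell-like cells.

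**Figure D1:**
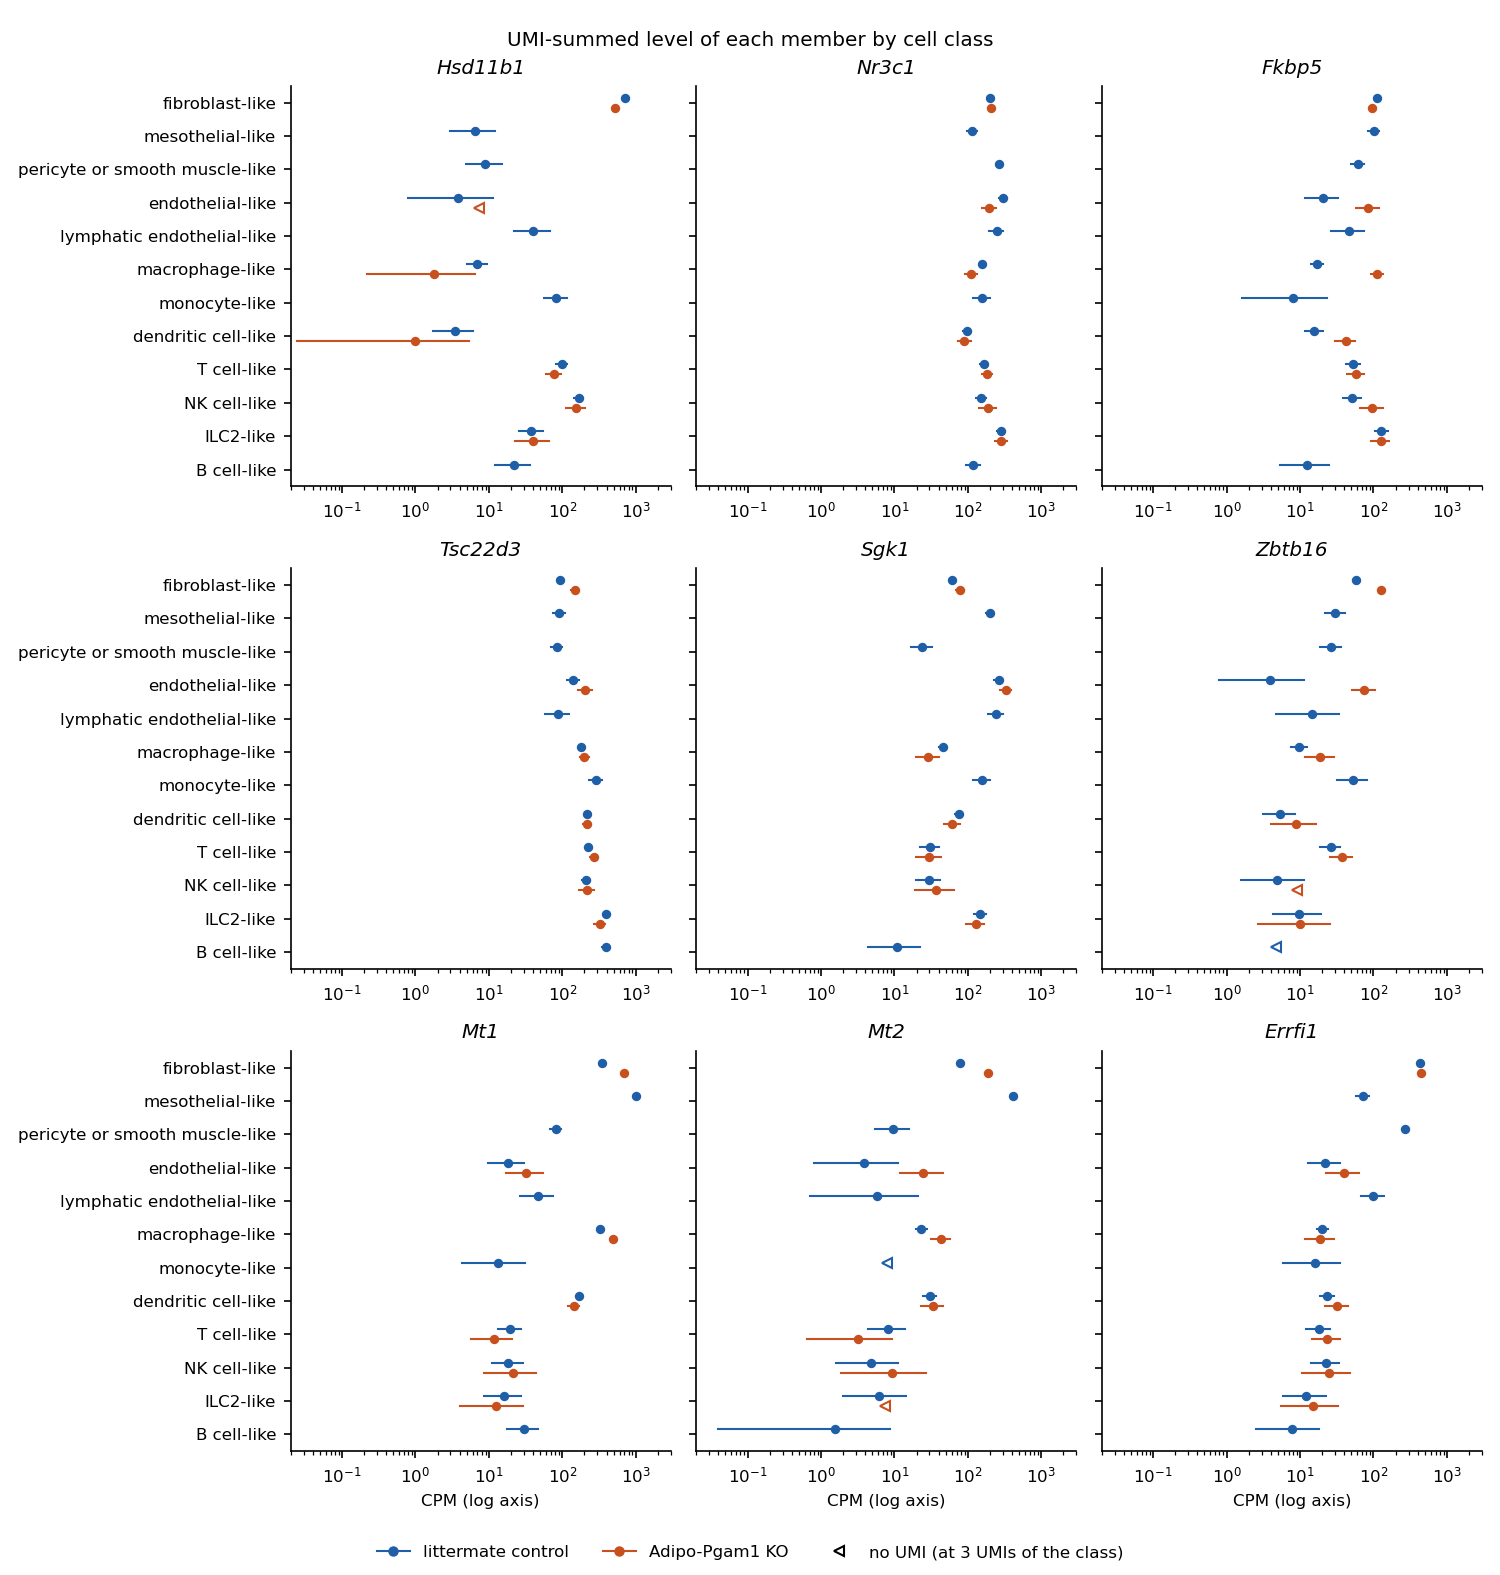
Level of each of the 9 genes (CPM, log axis) in the 12 classes with at least 50 control cells, for both libraries; points are CPM, lines are 95% Poisson intervals, and open triangles mark classes with no UMI, drawn at 3 UMIs. Adipo-Pgam1 KO points are shown only where the class had at least 50 of its cells. Hsd11b1 stands at 711 CPM in control fibroblast-like cells and at 167 CPM or below in every other class.

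Every class held some fibroblast RNA, so Hsd11b1 was also set against it. Per 1000 UMIs of 4 abundant fibroblast genes (Dcn, Col1a1, Col1a2 and Col3a1), control fibroblast-like cells held 18.6 UMIs of Hsd11b1. Macrophage-like cells held 23.8, dendritic cell-like cells 16.3 and endothelial-like cells 12.3. Higher values were found in NK cell-like (359), T cell-like (221), monocyte-like (160), lymphatic endothelial-like (119), ILC2-like (96.0) and B cell-like cells (53.6). In the Adipo-Pgam1 KO library the values were 13.3 in fibroblast-like, 685 in NK cell-like, 447 in T cell-like and 281 in ILC2-like cells. Mesothelial-like cells, which carry high collagen and decorin RNA of their own, held 0.30 in the control. The part of free RNA in the low levels was not tested.

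**Figure D2:**
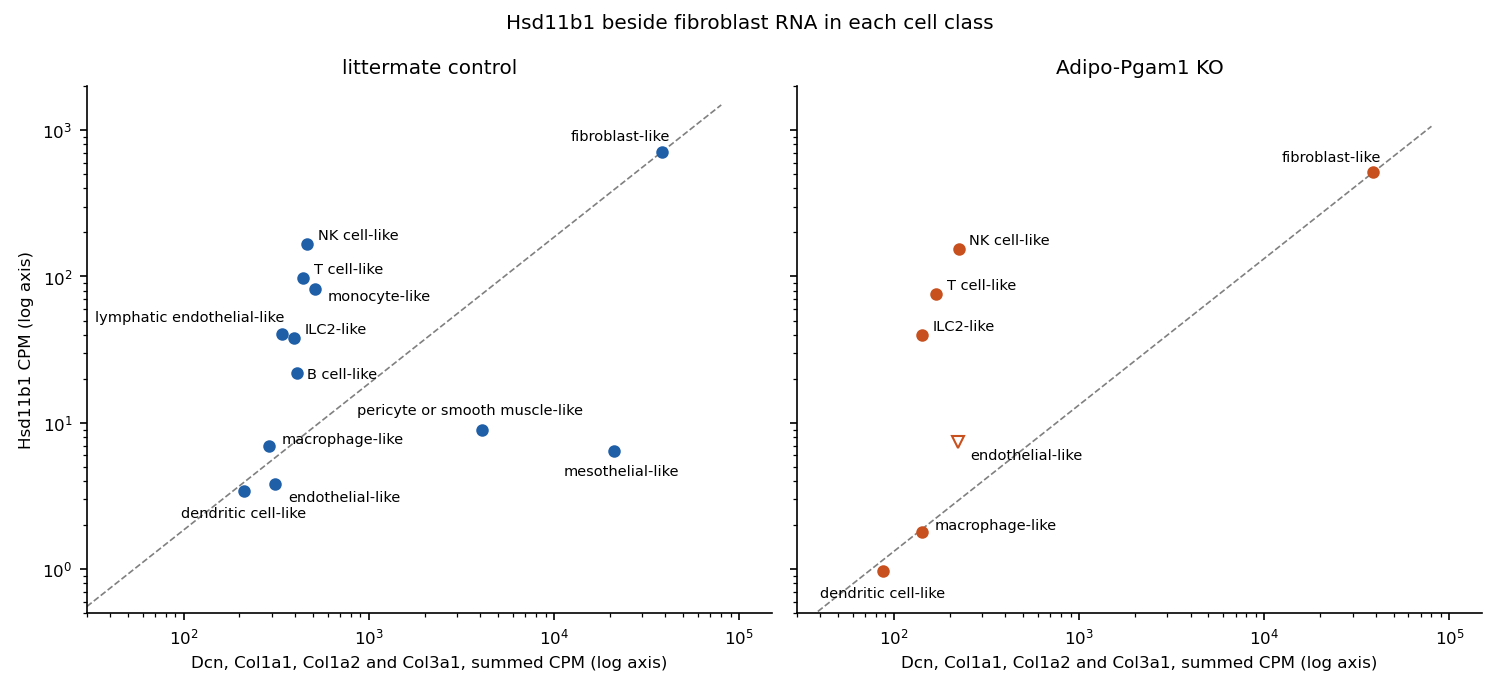
Hsd11b1 (CPM) against the summed level of Dcn, Col1a1, Col1a2 and Col3a1 (CPM) for each class and library, both axes log; the dashed lines carry the ratio found in fibroblast-like cells. An open triangle marks no UMI, drawn at 3 UMIs. NK cell-like, T cell-like, monocyte-like, lymphatic endothelial-like, ILC2-like and B cell-like cells lie above the lines and macrophage-like cells lie near them.

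Depth differs between classes, so cells were also thinned to 2000 UMIs each. At that depth Hsd11b1 was found in 62.3% (58.8 to 65.7) of control fibroblast-like cells, 27.9% of NK cell-like and 17.4% of T cell-like cells. In macrophage-like, endothelial-like and dendritic cell-like cells, the shares were 1.0%, 0.86% and 0.40%. The lymphocyte shares thus stood well above the level of these classes at equal depth.

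Within fibroblast-like cells, clustered again without the genes studied here, Hsd11b1 varied over a wide range. Cells carrying committed preadipocyte markers (among them Lpl, lipoprotein lipase, at 2364 CPM) held 1449 CPM in the control and 1531 CPM in the Adipo-Pgam1 KO library. Cells carrying Dpp4 and Pi16, markers of early adipose progenitors, held 47.7 and 26.5 CPM. Between these lay an unnamed sub-cluster led by Mmd2, Apln and Gatm (846 and 649 CPM), another led by Cxcl1, Ttyh2 and Plac8 (537 and 334 CPM), and Clec11a- and Fmo2-marked cells (428 and 260 CPM). The order was the same in both libraries.

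Across all fibroblast-like cells Hsd11b1 was lower in the Adipo-Pgam1 KO library, at 514 CPM, with a log2 ratio of -0.47 (-0.55 to -0.39). The share of cells with a UMI was 86.1% in the control and 76.1% in the Adipo-Pgam1 KO library, and after thinning 62.3% and 46.8% (39.4 to 54.2). The preadipocyte-like sub-cluster, the one with the highest level, was not lower (log2 ratio 0.08, -0.07 to 0.22), while the Mmd2, Cxcl1 and Clec11a sub-clusters were (-0.38, -0.69 and -0.72). That sub-cluster held 152 of 785 control but only 17 of 188 Adipo-Pgam1 KO cells, and with clusters weighted as in the control library the class ratio was -0.29. In lymphocytes the ratios were -0.12 for NK cell-like and -0.37 (-0.79 to 0.04) for T cell-like cells. H6pd, which supplies the enzyme's cofactor, was 214 CPM in control and 164 CPM in Adipo-Pgam1 KO fibroblast-like cells (log2 ratio -0.38, -0.53 to -0.24). Hsd11b2, the enzyme that inactivates corticosterone, had 8 and 6 UMIs there.

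**Figure D3:**
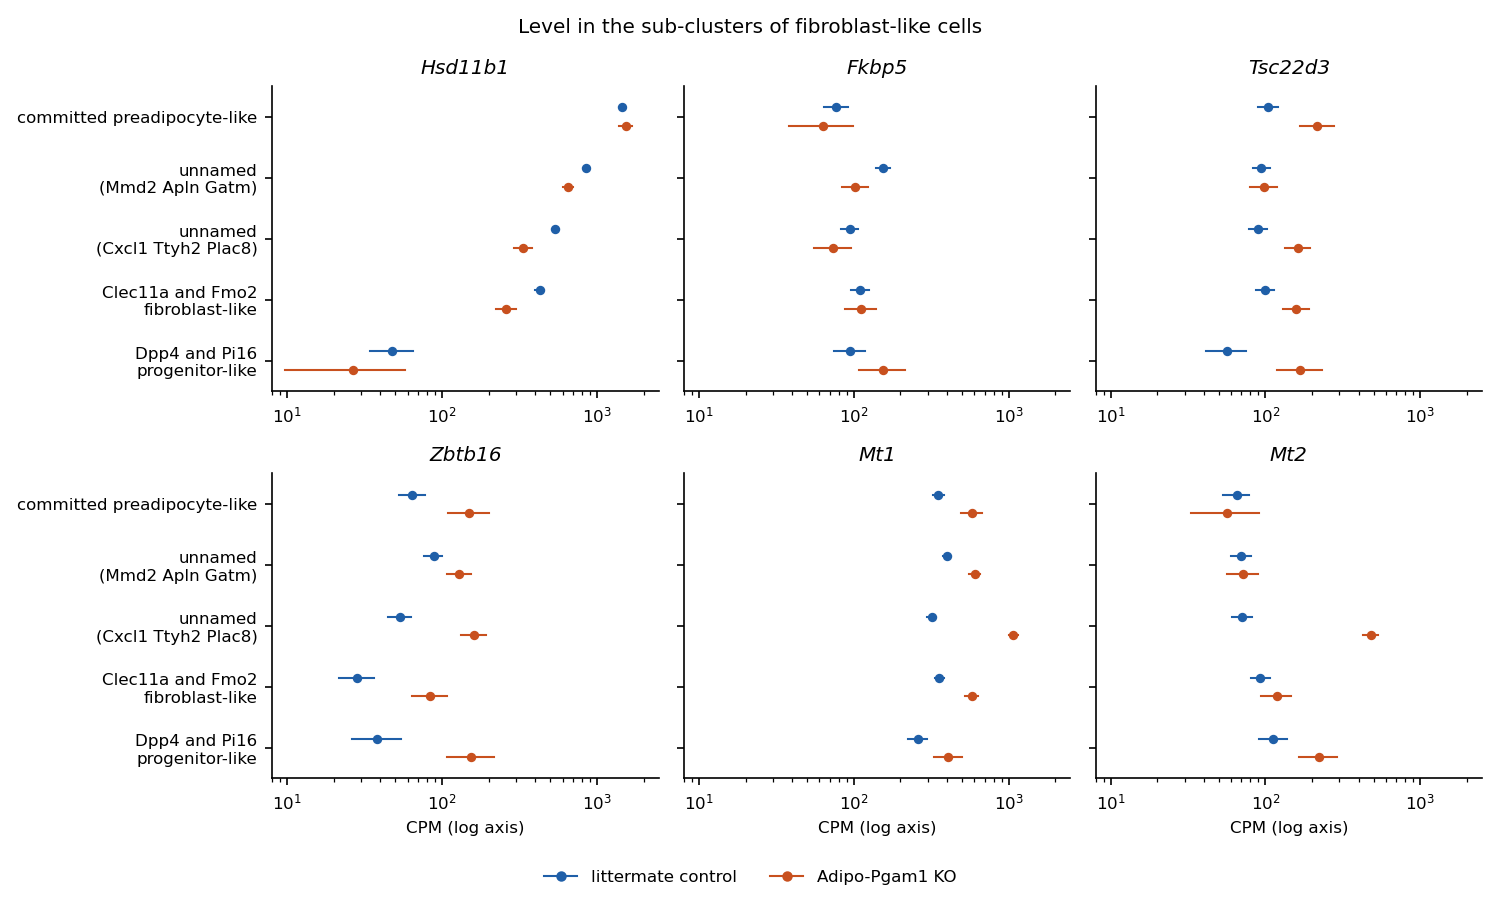
Level (CPM, log axis) of 6 of the genes in 5 sub-clusters of fibroblast-like cells in both libraries, with 95% Poisson intervals. Hsd11b1 runs from 47.7 CPM in Dpp4 and Pi16 progenitor-like cells to 1449 CPM in committed preadipocyte-like cells of the control. The CPM of Zbtb16 is higher in the Adipo-Pgam1 KO library in all 5, though its thinned share in the Mmd2 sub-cluster is not.

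Over the 12 classes of at least 50 control cells, the genes whose log2(CPM + 1) followed Hsd11b1 most closely among 10686 genes were Gnpnat1 (Pearson r = 0.92), Rnf6 (0.87) and Chic2 (0.83). Over the same classes in the Adipo-Pgam1 KO library, some with few cells, r was 0.41, 0.62 and 0.66. These values describe 12 points that share a library, and the genes were picked as the highest of many.

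The receptor gene Nr3c1 was detected in all 12 classes over a narrow range. In the control, endothelial-like cells were highest with 304 CPM (266 to 345) and dendritic cell-like cells lowest with 97.0 CPM (86.5 to 108). Both overlapped their neighbours in the order, ILC2-like (285 CPM, 249 to 324) and mesothelial-like cells (115 CPM, 98.3 to 135). Fibroblast-like cells stood at 201 CPM in the control and 203 CPM in the Adipo-Pgam1 KO library, a log2 ratio of 0.02 (-0.11 to 0.15). The receptor was lower in the Adipo-Pgam1 KO library in macrophage-like cells, 154 against 111 CPM (log2 ratio -0.47, -0.76 to -0.20), and in endothelial-like cells, 304 against 196 CPM (-0.63, -1.02 to -0.26). Among the receptor's chaperones, the co-chaperone Fkbp4 was higher in Adipo-Pgam1 KO fibroblast-like cells (0.72, 0.43 to 1.01), and the coactivator Ncoa1 was lower, at 128 and 101 CPM (-0.35, -0.53 to -0.17). The chaperone genes Hsp90aa1 and Hsp90ab1 were higher in both fibroblast-like (0.17 and 0.41) and macrophage-like cells (0.49 and 0.37). None of the 9 measured chaperone and coactivator genes passed 2-fold in fibroblast-like cells (1.42% of all genes were that much higher and 1.69% lower) or in macrophage-like cells (1.63% and 5.07%).

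Fkbp5 (chr17:28399094-28517527, minus strand), the feedback inhibitor of the receptor, was highest in control ILC2-like (128 CPM), fibroblast-like (111 CPM) and mesothelial-like cells (101 CPM), which overlapped as neighbours. Macrophage-like cells were near the bottom with 106 UMIs, or 17.0 CPM (13.9 to 20.6). In the Adipo-Pgam1 KO library they held 124 UMIs from far fewer cells, or 112 CPM (93.0 to 133). The Adipo-Pgam1 KO level was 6.57-fold higher, a log2 ratio of 2.72 (2.33 to 3.1). At least 1 UMI was found in 85 of 646 control cells (13.2%) and in 57 of 95 Adipo-Pgam1 KO cells (60.0%). Thinned to 2000 UMIs, the shares were 3.34% (2.05 to 5.11) and 22.8% (14.1 to 33.6). For comparison, the class with the lowest control level, monocyte-like cells (7.95 CPM, 3 UMIs), had a thinned share of 1.47%.

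Both macrophage-like clusters showed the difference, although the first held most of the control cells (354 of 646) and the second most of the Adipo-Pgam1 KO cells (61 of 95). Cells with resident macrophage genes (Cd209f, Fcna and Folr2) held 15.2 CPM in the control and 153 CPM in the Adipo-Pgam1 KO library (log2 ratio 3.33, 2.69 to 3.99). Cells led by Lyz1, Mmp12 and Ear2 held 18.2 and 95.6 CPM (2.39, 1.90 to 2.88). The ratio was 2.79 when the clusters were weighted as in the control library. The 8 fibroblast markers summed to 365 CPM in control and 177 CPM in Adipo-Pgam1 KO macrophage-like cells, with Dcn the most abundant at 188 and 66.8 CPM, and the part of fibroblast RNA in the Fkbp5 difference was not tested.

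Outside macrophages the Fkbp5 difference varied by class. It was lower in pericyte- or smooth muscle-like cells (218 and 21 cells), with 95 UMIs (60.9 CPM) and 3 UMIs (15.9 CPM). The log2 ratio there was -1.93 (-4.24 to -0.34). That class pooled a cluster led by Gipr, Abcc9 and Kcnj8 (125 control and 7 Adipo-Pgam1 KO cells) and one led by Kcnk3, Colec11 and Npy1r (93 and 14). The part of this mix in the ratio was not tested. Endothelial-like cells held 16 UMIs (20.5 CPM) in the control and 34 UMIs (84.4 CPM) in the Adipo-Pgam1 KO library, a log2 ratio of 2.04 (1.14 to 3.00), with thinned shares of 0.86% and 10.6%. NK cell-like cells stood at 51.5 and 95 CPM (0.88, 0.20 to 1.55). In dendritic cell-like cells the levels were 15.7 and 41.9 CPM (1.42, 0.80 to 2.04), and a UMI was found in 36 of 258 (14.0%) and 21 of 64 cells (32.8%). There 10 cells held 72.1% of the Adipo-Pgam1 KO UMIs, and the thinned shares, 4.74% and 1.61% (1 of 62 cells), went against the CPM, so no order is read from those shares. Fibroblast-like cells, already high, stood at 111 and 96.3 CPM (-0.20, -0.39 to -0.01), and the interval included 0 when UMI totals were rescaled by the trimmed mean of M-values, TMM (-0.10, -0.30 to 0.08). Their sub-clusters went both ways: progenitor-like cells stood at 94.2 and 155 CPM (0.71, 0.10 to 1.31, 15 Adipo-Pgam1 KO cells) and the Mmd2 sub-cluster at 154 and 102 CPM (-0.60, -0.92 to -0.28), while the intervals of the Cxcl1 (-0.36), Clec11a (0.02) and preadipocyte-like (-0.28) sub-clusters included 0. ILC2-like cells stood at 128 and 125 CPM. That class also held mast cell RNA, unequally: 6 mast cell markers summed to 1031 CPM in the control (Kit highest, 280 CPM) and 10736 CPM in the Adipo-Pgam1 KO library (Cma1 highest, 2841 CPM), while the 8 ILC2 markers summed to 4851 and 4599 CPM. Without the 3 and 5 cells that carried at least 3 of the mast cell markers, the log2 ratio of Fkbp5 was -0.04.

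**Figure D4:**
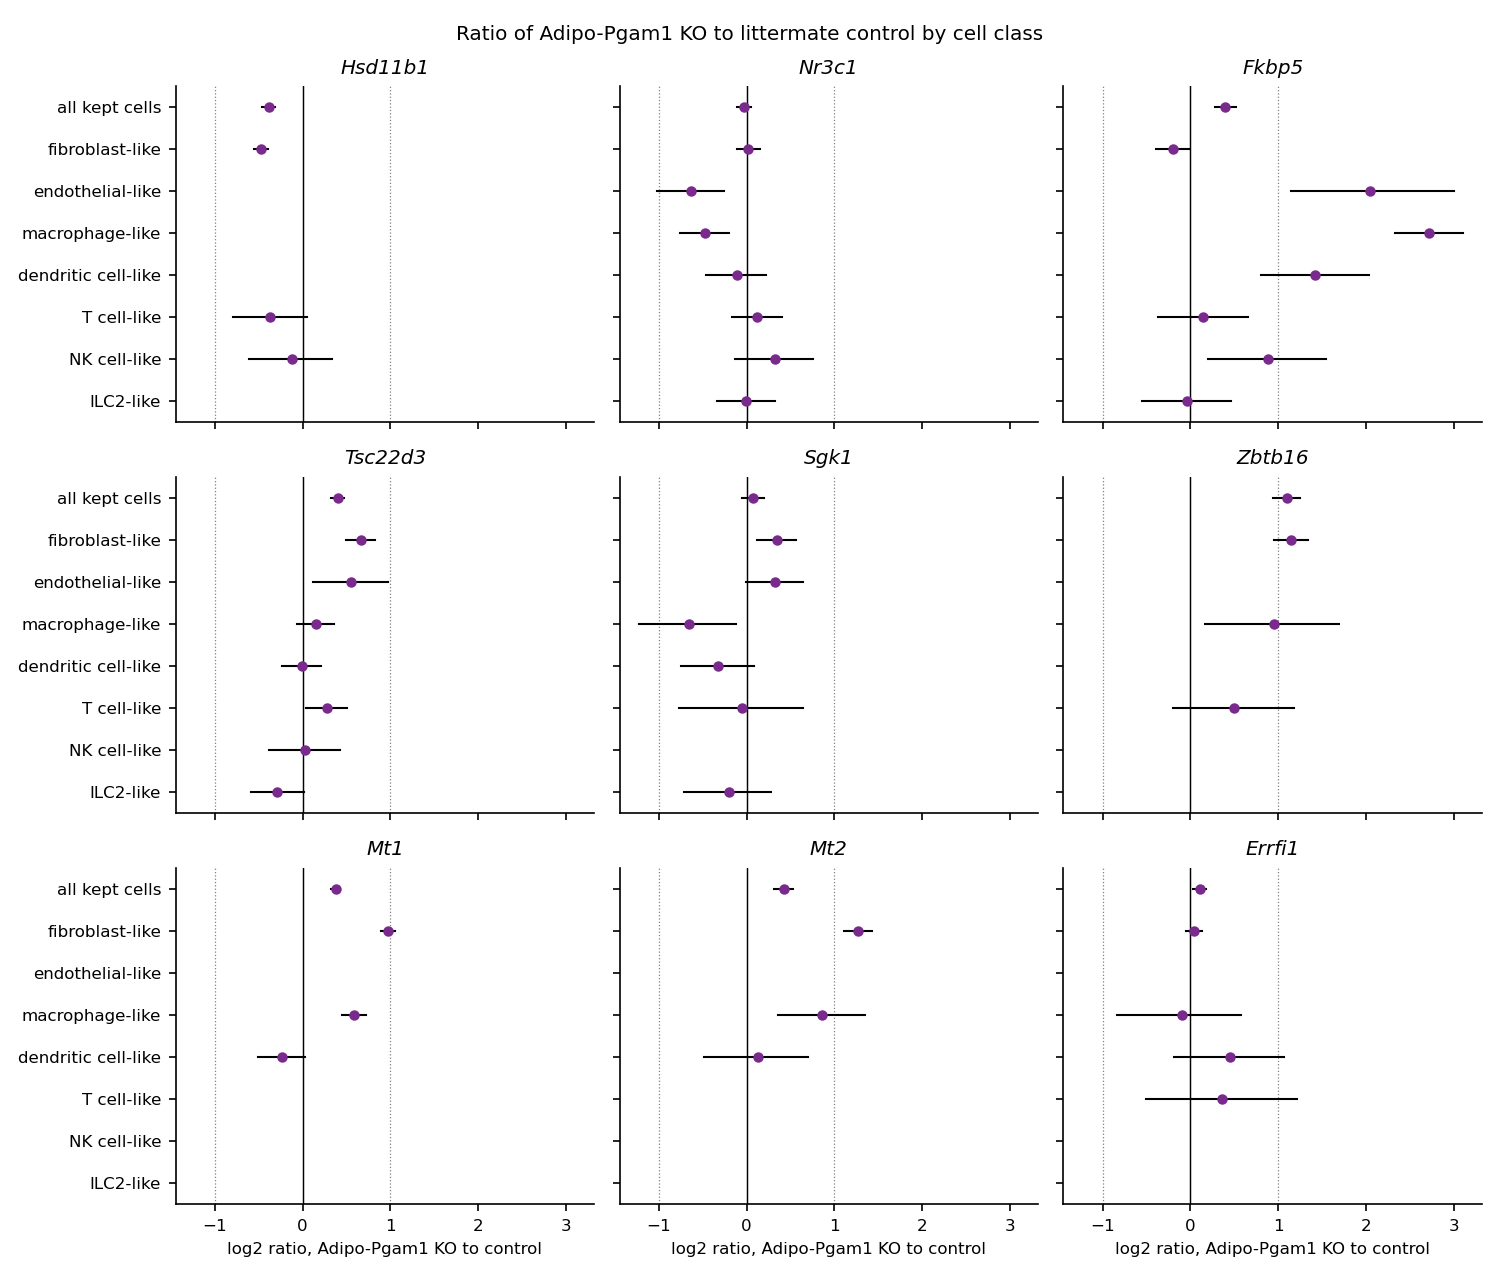
Log2 ratio of Adipo-Pgam1 KO to control for each gene with at least 50 UMIs over both libraries, in each class and over all kept cells, with 95% intervals; dotted lines mark 2-fold. Fkbp5 in macrophage-like cells (2.72) is the farthest from 0, and Zbtb16 (1.15) and Mt2 (1.27) pass 2-fold in fibroblast-like cells.

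Tsc22d3 (chrX:140539528-140600659, minus strand) encodes GILZ, an anti-inflammatory leucine zipper protein. Its control level was highest in ILC2-like (396 CPM) and B cell-like cells (395 CPM). Fibroblast-like cells were near the bottom with 92.7 CPM, and held 146 CPM in the Adipo-Pgam1 KO library (log2 ratio 0.66, 0.49 to 0.82). The sub-clusters differed: progenitor-like cells stood at 56.1 and 168 CPM (1.58, 0.93 to 2.23), preadipocyte-like cells at 104 and 216 CPM (1.05, 0.62 to 1.47), and the Mmd2 sub-cluster at 94.2 and 97.4 CPM (0.05, -0.30 to 0.39). Macrophage-like cells, with 180 and 199 CPM, had an interval that included 0 (0.15, -0.07 to 0.36) but not with TMM-scaled totals (0.25, 0.03 to 0.46).

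Sgk1 (chr10:21882184-21999903, plus strand) encodes a kinase that regulates ion transport and cell survival. Endothelial-like (264 CPM) and lymphatic endothelial-like cells (239 CPM) were highest in the control and overlapped. The Adipo-Pgam1 KO library was higher in fibroblast-like cells, 61.5 against 78.0 CPM (log2 ratio 0.34, 0.12 to 0.56), and lower in macrophage-like cells, 45.4 against 28.9 CPM (-0.65, -1.23 to -0.12). By sub-cluster the fibroblast-like ratio was 0.75 (0.39 to 1.10) in the Mmd2 sub-cluster, 0.35 in Clec11a- and Fmo2-marked cells, -0.01 in the Cxcl1 sub-cluster, -0.71 (-1.62 to 0.09) in preadipocyte-like cells and 1.37 (0.28 to 2.43) in progenitor-like cells, the last from 20 and 14 UMIs. Both class directions turned over when cells were thinned to 2000 UMIs (-0.15 and 0.24). Sgk1 is also the only one of the 7 genes with an entry in the promoter table whose windows held the full palindrome bound by the receptor. The window of 250 bases before one of its annotated starts, chr10:21993640-21993889 (plus strand, RefSeq, GRCm38.p6, inside the annotated gene and outside its annotated exons), is shown 5′ to 3′ because it holds this match, with the match in capitals.
Sgk1: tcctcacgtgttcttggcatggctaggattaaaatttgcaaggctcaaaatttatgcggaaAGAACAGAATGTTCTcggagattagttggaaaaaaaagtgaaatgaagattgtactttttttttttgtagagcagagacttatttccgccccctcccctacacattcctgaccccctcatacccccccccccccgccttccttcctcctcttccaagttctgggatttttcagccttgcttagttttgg

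The match, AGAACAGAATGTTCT, lies 189 to 175 bases before the start. The letters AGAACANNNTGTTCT, searched on both strands, occurred in 3 of 32851 such windows (0.00913%), and one side of it alone, AGAACA, in 5284 (16.1%). Windows were found for 7 of the 9 genes, 15 in all. A match is a description of letters and not a measured binding site.

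Zbtb16 (chr9:48654297-48836222, minus strand), a zinc finger transcription factor also known as PLZF, was highest in fibroblast-like cells of the control with 556 UMIs, or 57.7 CPM (53.0 to 62.6), overlapping monocyte-like cells (53.0 CPM, 20 UMIs). The Adipo-Pgam1 KO fibroblast-like cells held 390 UMIs, or 128 CPM (115 to 141), a 2.22-fold higher level (log2 ratio 1.15, 0.96 to 1.34). Thinned shares were 12.1% (9.93 to 14.7) and 24.7% (18.7 to 31.6). All 5 sub-clusters with cells of both libraries were higher: progenitor-like 38.2 against 155 CPM (2.02), the Cxcl1 sub-cluster 53.2 against 161 CPM (1.6), Clec11a- and Fmo2-marked cells 28.2 against 83.3 CPM (1.56), preadipocyte-like 63.9 against 149 CPM (1.23) and the Mmd2 sub-cluster 88.0 against 129 CPM (0.55). Thinned shares in the Mmd2 sub-cluster were not higher, at 17.1% (12.1 to 23.0) in the control and 15.9% (7.88 to 27.3) in the Adipo-Pgam1 KO library. The control order by CPM, with the Mmd2 sub-cluster on top, was not kept in the Adipo-Pgam1 KO library.

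Zbtb16 also differed in endothelial-like cells, where the control held 3 UMIs (3.84 CPM) and the Adipo-Pgam1 KO library 30 UMIs (74.5 CPM). The log2 ratio of 4.28 has a wide interval (2.59 to 6.63), and the thinned shares were 0 of 116 cells, where 3 cells would be 2.59%, and 17.0%. Their fibroblast markers summed to 397 CPM in the control and 280 CPM in the Adipo-Pgam1 KO library. In T cell-like cells the levels were 26.2 and 36.9 CPM, most of it in the cluster with gamma-delta T cell genes (Cd163l1 and Trdc), at 115 and 188 CPM. B cell-like cells had no Zbtb16 UMI in either library (133 and 38 cells), where 3 UMIs would give 4.68 and 12.8 CPM. In macrophage-like cells the levels were 9.79 and 18.9 CPM, but 95.2% of the Adipo-Pgam1 KO UMIs came from 10 cells. Over all kept cells the levels were 27.7 and 59.2 CPM (1.10). The control classes were followed most closely by Coq3 (r = 0.91), Itgav (0.89) and 4933427D14Rik (0.88), with r of 0.11, 0.06 and -0.54 in the Adipo-Pgam1 KO library.

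Errfi1 (chr4:150853919-150868892, plus strand) encodes a feedback inhibitor of the epidermal growth factor receptor. It was highest in fibroblast-like (427 CPM) and pericyte- or smooth muscle-like cells (272 CPM) of the control. In Adipo-Pgam1 KO fibroblast-like cells it stood at 439 CPM (log2 ratio 0.04, -0.05 to 0.13, and 0.14, 0.05 to 0.22, with TMM-scaled totals). This single value covers opposite differences at the ends of the sub-cluster range: progenitor-like cells held 322 and 861 CPM (1.42, 1.15 to 1.69) and preadipocyte-like cells 398 and 213 CPM (-0.90, -1.30 to -0.53). Only 15 and 17 Adipo-Pgam1 KO cells stand behind these 2 values. Pericyte- or smooth muscle-like cells, 218 and 21 in number, held 272 and 802 CPM of Errfi1 (1.56, 1.28 to 1.83). The part of the unlike cluster mix of this class, given above for Fkbp5, was not tested.

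The metallothioneins Mt1 (chr8:94179082-94180327, plus strand) and Mt2 (chr8:94172664-94173568, plus strand) are neighbouring genes for small zinc- and copper-binding proteins, induced by metals as well as by glucocorticoids. Mesothelial-like cells were highest for both in the control, at 999 CPM of Mt1 and 417 CPM of Mt2. Fibroblast-like cells held 348 CPM of Mt1 in the control and 686 CPM in the Adipo-Pgam1 KO library (log2 ratio 0.98, 0.90 to 1.06). For Mt2 they held 77.9 and 188 CPM (1.27, 1.11 to 1.43). The Mt2 difference rested on few cells: 10 cells carried 61.8% of the Adipo-Pgam1 KO UMIs, and 1 of them carried 166 of 573. Without the 5% of cells richest in each gene the ratios were 0.71 for Mt2 and 0.78 for Mt1. The Cxcl1 sub-cluster was the farthest apart, at 71.0 and 478 CPM of Mt2 (2.75) and 318 and 1074 CPM of Mt1 (1.76). That Mt2 value rests on the same cells: 10 of its 43 Adipo-Pgam1 KO cells held 314 of 345 UMIs, and the cell with 166 was one of them. The Mt1 value there rests on few cells too: 10 of the 43 held 572 of 775 UMIs, and 1 cell held 175. In the other 4 sub-clusters Mt2 ratios lay between -0.21 and 0.98, and Mt1 ratios between 0.60 and 0.72.

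Macrophage-like cells held 325 CPM of Mt1 in the control and 488 CPM in the Adipo-Pgam1 KO library (0.58, 0.45 to 0.72). There too 59.0% of the Adipo-Pgam1 KO UMIs came from 10 cells, and the thinned shares were 42.6% and 44.3%. Dendritic cell-like cells held 169 and 143 CPM of Mt1 (-0.24, -0.51 to 0.03). Because both genes were higher in Adipo-Pgam1 KO fibroblast-like cells, the bases before both starts are shown (plus strand, 5′ to 3′, RefSeq, GRCm38.p6). Matches to TGCACNC or TGCGCNC on either strand are in capitals. Metal response elements are known near metallothionein genes, and whether these matches are such elements was not tested. The Mt1 window, chr8:94178839-94179081, stops before an annotated exon, and the Mt2 window is chr8:94172368-94172617.
Mt1: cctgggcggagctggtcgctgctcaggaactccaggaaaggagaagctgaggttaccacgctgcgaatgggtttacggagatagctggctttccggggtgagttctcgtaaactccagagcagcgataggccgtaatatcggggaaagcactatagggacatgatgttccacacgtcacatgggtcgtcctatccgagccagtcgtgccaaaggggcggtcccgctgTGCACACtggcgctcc
Mt2: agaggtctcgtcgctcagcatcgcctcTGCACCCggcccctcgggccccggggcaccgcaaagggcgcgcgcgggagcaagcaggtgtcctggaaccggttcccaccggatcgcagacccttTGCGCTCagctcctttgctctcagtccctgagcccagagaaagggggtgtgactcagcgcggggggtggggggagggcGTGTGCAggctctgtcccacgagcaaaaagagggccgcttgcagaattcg

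The Mt1 window held 1 match, TGCACAC, 23 bases before the start. The Mt2 window held 3, beginning 223, 128 and 50 bases before it, the last on the reverse strand. At least 1 match occurred in 7032 of 32851 windows (21.4%) and at least 3 in 415 (1.26%). Among other metal-handling genes in fibroblast-like cells, the zinc exporter Slc30a1 was lower in the Adipo-Pgam1 KO library (-1.05, -1.77 to -0.40), the one of 6 measured that passed 2-fold (1.69% of all genes were that much lower). The metallothionein Mt3, under the minimum of 50 UMIs, had 28 UMIs (2.90 CPM) in the control and none in the Adipo-Pgam1 KO library, at least 2.95-fold lower against a floor of 3 UMIs.

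Counted together, 2 of the 9 genes, Zbtb16 and Mt2, were at least 2-fold higher in Adipo-Pgam1 KO fibroblast-like cells and none was 2-fold lower, where 1.42% of 10586 genes with at least 50 UMIs were that much higher and 1.69% that much lower. The median log2 ratio of the 9 was 0.34, and that of all genes -0.10. In macrophage-like cells 1 of 8 measured, Fkbp5, was 2-fold higher (1.63% of 8777 genes were, and 5.07% were lower), and the median was 0.37 against -0.11 for all genes. Fkbp5 was also the one gene past 2-fold of 7 measured in dendritic cell-like cells (0.994% of genes were higher and 3.08% lower). There few cells held most of its Adipo-Pgam1 KO UMIs, as given above. Fkbp5 was the one of 4 past 2-fold in endothelial-like cells as well (1.46% and 3.49%). None passed 2-fold in NK cell-like (0.764% of genes higher, 2.85% lower), T cell-like (0.897% and 1.86%) or ILC2-like cells (1.96% and 2.90%), the last with the mast cell RNA given above. Over all kept cells 1 of 9, Zbtb16, passed it (2.48% higher, 2.02% lower). The 9 genes and the lists below were chosen with earlier results of these data known, so the shares of all genes are no test of them.

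A list of 23 further glucocorticoid-responsive genes was followed in the same way. In fibroblast-like cells 21 were measured, and 2 were at least 2-fold higher and none 2-fold lower in the Adipo-Pgam1 KO library (1.42% and 1.69% of all genes): Lcn2, which encodes the iron-chelator carrier lipocalin 2 (11.2 and 27.8 CPM, log2 ratio 1.31), and the cell cycle inhibitor Cdkn1a (35.3 and 79.6 CPM, 1.17). Zfp36, which destabilises cytokine mRNAs, stood at 0.82, and the repressor Bcl6 at -0.81. The list median was 0.23, and that of all genes -0.10. In macrophage-like cells 18 were measured, 3 of them 2-fold higher and 3 2-fold lower (1.63% and 5.07% of all genes), with a median of 0.31 against -0.11 for all genes. The higher ones were the clock gene Per1 (28.9 and 77.6 CPM, 1.43), the transcription factor Klf9 (42.5 and 110 CPM, 1.37) and Cebpb (354 and 858 CPM, 1.28). Ddit4, an inhibitor of mTOR signalling, had 23 and 15 UMIs (1.87, 0.83 to 2.87). The lower ones were Sesn1, which encodes the stress protein sestrin 1 (75.8 and 32.5 CPM, -1.22), Txnip, a binding partner of thioredoxin (680 and 296 CPM, -1.20), and the haemoglobin scavenger receptor Cd163 (307 and 148 CPM, -1.05). All these macrophage-like ratios pool both clusters. The resident macrophage cluster held 354 of 646 control but 34 of 95 Adipo-Pgam1 KO cells, and its part in the ratios was not tested. In endothelial-like cells 14 genes of the list were measured, 4 of them 2-fold higher and none 2-fold lower (1.46% and 3.49% of all genes). The list median was 0.61 there, against -0.11 for all genes. Cdkn1a stood at 53.8 and 447 CPM in these cells (3.05, 2.56 to 3.57).

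**Figure D5:**
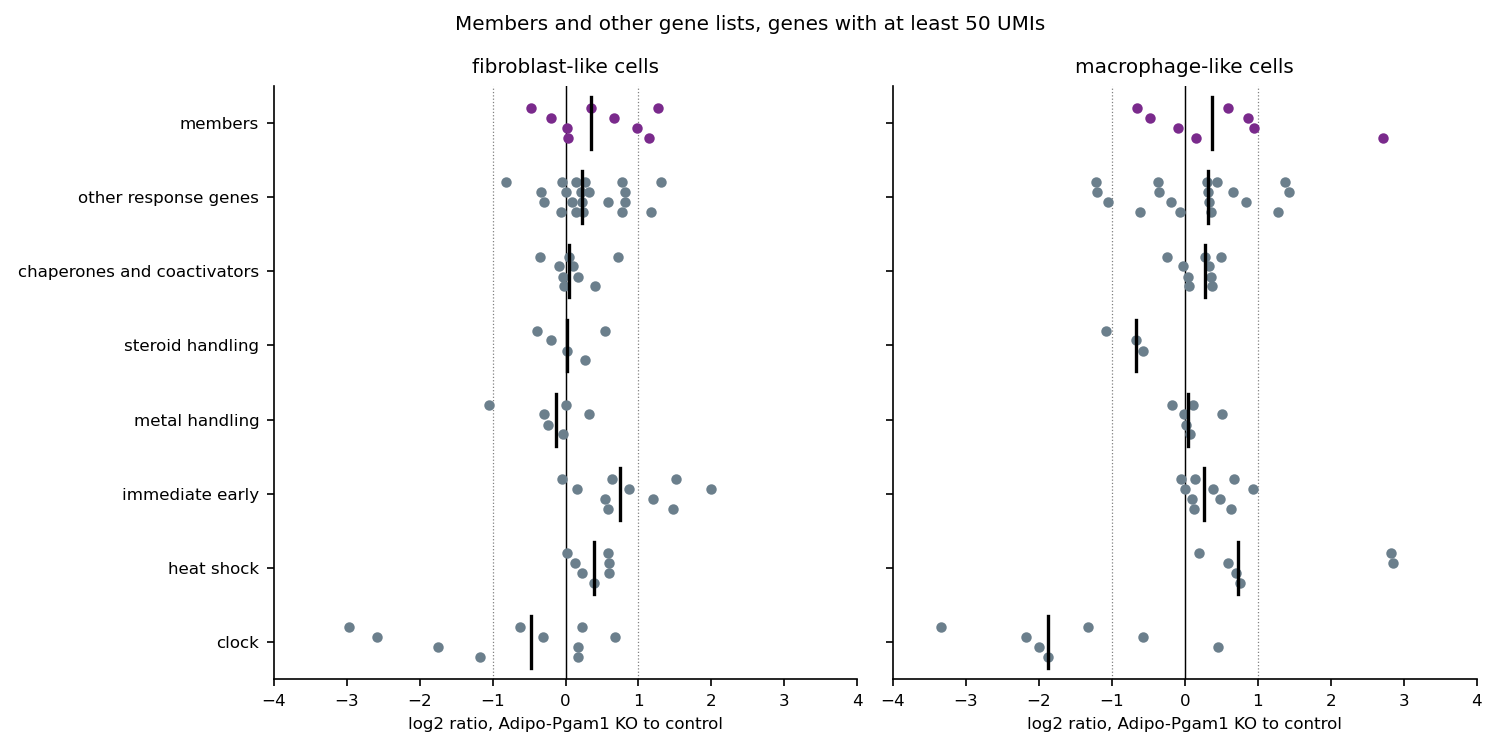
Log2 ratio of Adipo-Pgam1 KO to control for the 9 genes and for the other gene lists in fibroblast-like and macrophage-like cells; dots are genes and black bars are list medians. Clock genes lie lowest in both classes (medians -0.47 and -1.88). Among the lists shown for macrophage-like cells, heat shock genes have the highest median (0.73).

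Genes that respond to handling and to time of day differed between the libraries as well. The 10 immediate early genes had a median of 0.75 in fibroblast-like cells, against -0.10 for all genes, and 4 were at least 2-fold higher, as were 1.42% of all genes (Atf3 1.99, Fosb 1.52, Btg2 1.47 and Fos 1.20). Their median was 0.26 in macrophage-like cells, against -0.11 for all genes. It was 0.71 in ILC2-like, 0.53 in endothelial-like, 0.12 in T cell-like, -0.01 in NK cell-like and -0.28 in dendritic cell-like cells. In ILC2-like cells 4 of 9 measured were 2-fold higher (1.96% of all genes). Lower by 2-fold were 2 of 8 in NK cell-like (2.85%) and 1 of 10 in dendritic cell-like cells (3.08%). Heat shock genes had a median of 0.39 in fibroblast-like and 0.73 in macrophage-like cells, where Hspa1a and Hspa1b stood at 2.86 and 2.82. In other classes the median was 1.09 (dendritic cell-like), 0.85 (ILC2-like), 0.55 (T cell-like), 0.43 (NK cell-like) and 0.37 (endothelial-like). At least 2-fold higher were 3 of 6 measured in dendritic cell-like (0.994% of all genes) and 2 of 6 in macrophage-like cells (1.63%). So were 1 of 4 in NK cell-like (0.764%) and 1 of 4 in T cell-like cells (0.897%). Of 10 clock genes measured, 4 were 2-fold lower in fibroblast-like cells (1.69% of all genes), and 5 of 7 in macrophage-like cells (5.07%). So were 3 of 5 in ILC2-like (2.9%) and 4 of 6 in endothelial-like cells (3.49%). None passed 2-fold in NK cell-like, T cell-like or dendritic cell-like cells, with 1, 6 and 2 measured. Nr1d1 and Dbp stood at -2.96 and -2.58 in fibroblast-like and at -3.34 and -1.99 in macrophage-like cells. Per1, counted with the responsive genes above, stood at 1.43 in macrophage-like cells. Several of the genes studied here respond to the same stimuli, and the part of handling or time of day in their differences was not tested. Schwann cell markers summed to 8.8 CPM in control and 110 CPM in Adipo-Pgam1 KO fibroblast-like cells, where 7 cells carried at least 3 of 6. Without those cells Zbtb16 stood at 1.17 and Mt2 at 1.29.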

How the data were processed

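The authors sequenced 10x Chromium SVF libraries and deposited a matrix of UMI counts per gene and barcode for each. The submitters' processing notes name Cell Ranger 3.0.1, Seurat 3.1.5, R 4.0.1 and mm10. From the deposited counts, the highest Scrublet scores were removed as doublets within each library (0.8% per 1000 barcodes), leaving out 265 control and 21 Adipo-Pgam1 KO cells. Cells were clustered with scanpy 1.11.5 (2000 variable genes, 30 components, Leiden resolution 0.5). Left out of the clustering were 60 genes: Pgam1, the 9 members and the steroid-handling, chaperone and coactivator, further responsive and metal-handling lists. Immediate early, heat shock and clock genes were not left out. Clusters were named from marker lists, and parts of the naming rule were set after the clusters had been seen. UMIs were summed per class and library. CPM carry exact Poisson intervals, ratios exact conditional binomial intervals and shares above 0 Clopper-Pearson intervals. Cells of 1 library share their source and were not treated as replicates. A gene was counted as measured with 50 UMIs over both libraries. The interval script was run on simulated Poisson counts with known folds. The intervals assume such counts, so that run did not test spread between cells or libraries. A class name rests on rebuilt clusters and may differ from the study's. Named genes were the 9 members, Pgam1, up to 4 genes of each list with the largest ratio in fibroblast-like or macrophage-like cells (20 UMIs or more), and the 3 genes most like Hsd11b1 and Zbtb16. Sesn1, Txnip, Cd163, Hsd11b2 and endothelial Cdkn1a were named after their values were seen. The members and lists were chosen with earlier results of these data known. One listed gene, Cebpd, was not analysed here.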

Additional observations from a re-analysis of the deposited data

Results flagged for a closer look

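Fkbp5 differed in opposite directions in the 2 largest classes: its log2 ratio of Adipo-Pgam1 KO to control was 2.72 in macrophage-like cells and -0.20 in fibroblast-like cells, with intervals on opposite sides of 0. The interval in fibroblast-like cells (-0.39 to -0.01) ended close to 0, and with TMM factors it included 0 (-0.10, -0.30 to 0.08). Within fibroblast-like cells the ratio was 0.71 in progenitor-like cells and -0.60 in the Mmd2 sub-cluster. Sgk1 had the reverse arrangement, 0.34 in fibroblast-like and -0.65 in macrophage-like cells, and both of these turned when cells were thinned to 2000 UMIs (-0.15 and 0.24). Each genotype is 1 library, so the difference between the classes was not tested for either gene.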

How the results depend on the processing

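Under 16 other settings, 4 of them chosen after seeing the data, the median ratio stayed positive in fibroblast-like cells (0.24 to 0.44) and in macrophage-like cells (0.09 to 0.57). Zbtb16 in fibroblast-like cells ranged from 1.04 to 1.26 and Fkbp5 in macrophage-like cells from 2.56 to 3.17; without the 5% of cells richest in Fkbp5, a removal that selects on the gene itself, it was 3.39. The log2 difference of Hsd11b1 between fibroblast-like and other control cells was 4.68 when the gene minimum was 200 and the mitochondrial limit 20%, 5.37 when they were 1000 and 5%, 4.71 with each library clustered on its own, 4.71 with all variable genes allowed, 3.46 as a mean of the CPM of each cell and 4.02 after thinning. Members 2-fold higher in fibroblast-like cells numbered 1 (Zbtb16) with the 200-gene filter (1.13% of all genes under the same setting) and without the 5% of cells richest in each gene (7.94%), and 3 (Zbtb16, Mt1 and Mt2) with the 1000-gene filter (1.31%), without doublet removal (1.12%), with TMM and with median-of-ratios factors (1.77% each). In macrophage-like cells they numbered 2 with the 200-gene filter (Fkbp5 and Mt2, 1.48% of all genes), with TMM and with median-of-ratios factors (both Fkbp5 and Zbtb16, 2.12% and 2.15%), 3 at resolution 0.3 and with clusters weighted as in the control library (Fkbp5, Zbtb16 and Mt2, 1.5% and 1.48%), and 0 after thinning (2.02%), when Fkbp5 had under 50 UMIs. With either set of factors the interval of Fkbp5 in fibroblast-like cells came to include 0, and those of Errfi1 there, Tsc22d3 in macrophage-like and Sgk1 in endothelial-like cells (0.44) came to lie above it. Members 2-fold lower in macrophage-like cells numbered 1 without doublet removal (Hsd11b1, 5.81% of all genes), at resolution 0.3 (Sgk1, 5.25%) and without the richest 5% of cells (Sgk1, 6.51%). With 20 instead of 50 UMIs required of a gene, 2.53% of all genes were 2-fold higher and 3.47% lower in fibroblast-like cells (1.42% and 1.69% with 50), and 2.56% and 5.74% in macrophage-like cells (1.63% and 5.07%). Of 719 single values, 47 had the other sign, 41 of them for results whose reported interval included 0. The other 6 were Errfi1 over all cells at -0.019 (mean CPM), -0.030 (thinned) and -0.17 (without the richest 5%), and, thinned, Tsc22d3 in endothelial-like cells at -0.089, and Sgk1 at -0.15 in fibroblast-like and 0.24 in macrophage-like cells. The cause was not tested. The 1000-gene filter and separate clustering left under 50 Adipo-Pgam1 KO macrophage-like cells and gave no value there. No paired analysis was possible because each genotype has 1 library. Depth limits the smaller classes most: several members had under 50 UMIs in endothelial-like, NK cell-like and ILC2-like cells.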

Other observations

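High levels of Mt1 and of Fkbp5 were found in cell clusters that carried no class name, a different cluster for each. A cluster with genes of motile cilia (Dcdc2a, Dynlrb2 and Foxj1 among its leading genes, 84 control and 27 Adipo-Pgam1 KO cells) held 2830 CPM of Mt1 in the control and 1680 CPM in the Adipo-Pgam1 KO library. A cluster led by Tenm2, Ajap1 and Ptn (80 and 20 cells) held the highest Fkbp5 level of any cluster in the control, 266 CPM, and 287 CPM in the Adipo-Pgam1 KO library.

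Barcodes that failed the filters on genes and mitochondrial share, 4641 in the control and 1772 in the Adipo-Pgam1 KO library, gave other values than the kept cells. Mt1 stood at 567 and 230 CPM there (log2 ratio -1.30, -1.40 to -1.20), Mt2 at 140 and 70.0 CPM (-0.99, -1.18 to -0.81) and Fkbp5 at 44.0 and 30.6 CPM (-0.52, -0.82 to -0.23). Hsd11b1 was 73.1 and 45.5 CPM (-0.69, -0.93 to -0.45), and Zbtb16 15.6 and 19.0 CPM (0.28, -0.13 to 0.68).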
